A study of Mus musculus with 6 samples.

Results

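The genes described here encode the proteasome: the subunits of its core and cap, the chaperones that assemble it and its activators. They were taken by name, as every row of the deposited expression table whose symbol begins with Psma to Psmg followed by a digit, which gave 48 of 13582 rows. The naming rule uses no expression values, but the family was chosen with earlier results of these data known. One of the 48, Psmc3ip, meets the naming rule without being part of the proteasome (it encodes a factor of meiotic recombination), so 47 rows are proteasome genes. RNA was sequenced from the right cerebral cortex of C57BL/6 mice killed at 10 weeks of age, 2 weeks after a single intraperitoneal injection. The vehicle group held 3 mice and the resveratrol group (10 mg/kg) 3 mice, with 1 library from each. The labels give the same 10 mg/kg for vehicle, read here as the injection without resveratrol. Resveratrol is a plant polyphenol, and the series asks how transcripts of the cortex differ in the late phase of the tolerance to ischemia that it induces. The labels name no ischemia for these mice.

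The proteasome degrades proteins tagged with ubiquitin and so sets the lifetime of much of the proteome. Its barrel-shaped 20S core is closed by rings of alpha subunits, and beta subunits inside carry the proteolytic sites. The 19S cap recognises ubiquitin chains, unfolds the substrate with a ring of ATPases and feeds it into the core. Interferons can replace the constitutive catalytic subunits by inducible ones, which gives the immunoproteasome, and other activators (PA28 and PA200) can take the place of the cap. In neurons the proteasome also acts at synapses, where its activity shapes plasticity.

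Values are FPKM, the fragments of a transcript scaled by its length and by the mapped fragments of the library, so levels of different genes can be compared. Listed FPKM summed to between 351731 and 397876 per library, and sequencing depth is unknown. All 10 cortical neuron markers checked were present, among them Slc17a7, the vesicular glutamate transporter of cortical excitatory neurons, at 209 ± 26.7 FPKM (SD, n = 3) with vehicle and 226 ± 18.9 FPKM (SD, n = 3) with resveratrol. Markers of neighbouring tissue varied among the libraries. All 7 choroid plexus markers measured had fitted differences above 0, with a median log2 fold change of 0.68 (0.25 without resveratrol 3). Their sum ranged from 17.31 to 114 FPKM with vehicle and from 49.53 to 459 FPKM with resveratrol, most of it Ttr, the thyroid hormone carrier made by this epithelium, at 13.3 to 108 and 43.2 to 441 FPKM. All 10 striatal markers had fitted differences below 0, with sums from 335.6 to 872.9 and from 280.7 to 612.2 FPKM. Median log2 fold changes were -0.27 for 8 ependymal, -0.14 for 8 oligodendrocyte, -0.13 for 7 astrocyte, -0.00 for 8 endothelial and 0.01 for 10 cortical neuron markers, and 0 genes of these lists passed the test. Of the 8 ependymal markers 7 were lower and 1 (Rsph1, 0.09) higher. Ccdc153 (-0.81), Tmem212 (-0.84) and Rarres2 (-0.45) were lower in every resveratrol library. Each had an unadjusted limma p under 0.05, where 0.788% of all genes were lower at such a p. Ccdc153 and Tmem212 were low in level (vehicle means 1.8 and 1.45 FPKM), and Foxj1 (-0.13) overlapped between groups. Calml4 of the choroid plexus (0.68, limma unadjusted p = 0.00646) and Aldh1l1 of astrocytes (0.21) were higher in every resveratrol library (4.28% of all genes were). Of the 7 astrocyte markers 2 were higher and 5 lower. The part of these marker lists in the proteasome values was not tested.

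Proteasome transcripts were abundant in every library. All 48 rows were above the floor of the table and entered the test, and 38 of them had a mean above the median gene (10.2 FPKM). The highest, Psmb1 (mean 117 FPKM), stood 158-fold above the lowest, Psmb9 (0.739 FPKM). The 14 constitutive core subunits lay between 48.1 and 117 FPKM, within 2.43-fold of each other, and the 17 cap subunits between 27.3 and 101 FPKM. The 7 dedicated assembly chaperones were lower, at 6.96 to 27.2 FPKM.

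**Figure D1:**
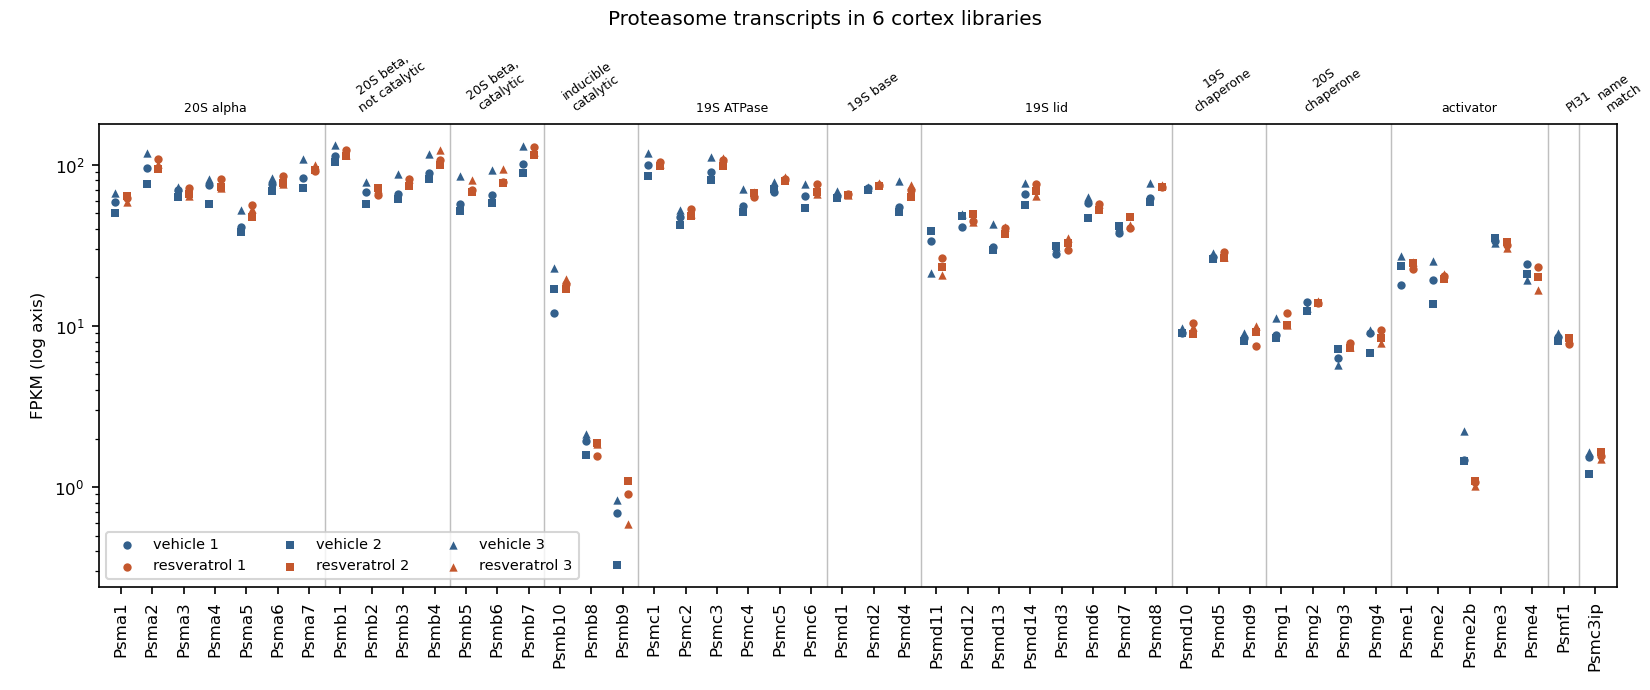
FPKM of the 48 rows (log axis) in 3 vehicle libraries (blue) and 3 resveratrol libraries (orange), with 1 point per library and genes ordered by role. Core and cap subunits lie between 27.3 and 117 FPKM on average, chaperones between 6.96 and 27.2, and Psmb8, Psmb9, Psme2b and Psmc3ip near or under 2.

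No proteasome gene passed the test between resveratrol and vehicle. With limma over all 13574 genes tested, 0 of 48 rows passed a Benjamini-Hochberg adjusted p of 0.05, where 0.00737% of all genes did (1 gene, higher). The smallest adjusted p among them was 0.987, and 1 row (2.08%), Psme2b, had an unadjusted p under 0.05, against 2.42% of all genes (1.64% higher and 0.788% lower). The fitted difference was above 0 in 40 of 48 rows (83.3%), against 56.1% of all genes, and their median log2 fold change was 0.09 against 0.02. That count was 35 of 48 after median centring or quantile normalization (50.7% and 51.2% of all genes were higher), and 30 of 48 after a correction for transcript length and GC content (50.1% of all genes). The groups did not overlap for 4 rows (8.33%, against 6.28% of all genes). Psmc5, Psmd2 and Psmg3 were higher in all resveratrol libraries (4.28% of all genes were) and Psme2b was lower (2% of all genes were). The 95% intervals of all 48 differences lay between -0.89 and 0.81 on the log2 scale, and 36 of them lay within 0.5 of zero. Leaving out libraries moved these values. Without vehicle 2, 27 of 48 rows were higher, against 57.6% of all genes, and the median was 0.01. Without vehicle 3 it was 0.15, with 16 rows (33.3%) at an unadjusted p under 0.05 and 0 past the adjusted threshold, where 17.4% of all genes had such a p and 7 were called. With vehicle 1 and vehicle 2 both left out, 10 of 48 were higher, against 55.1% of all genes, and the median was -0.10. That fit assumes the lone vehicle library varies like the resveratrol group. Its only vehicle library is vehicle 3, the highest of all libraries for 27 of 48 rows. Lower differences follow from that, so the fit is no independent check, here or for single genes below.

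**Figure D2:**
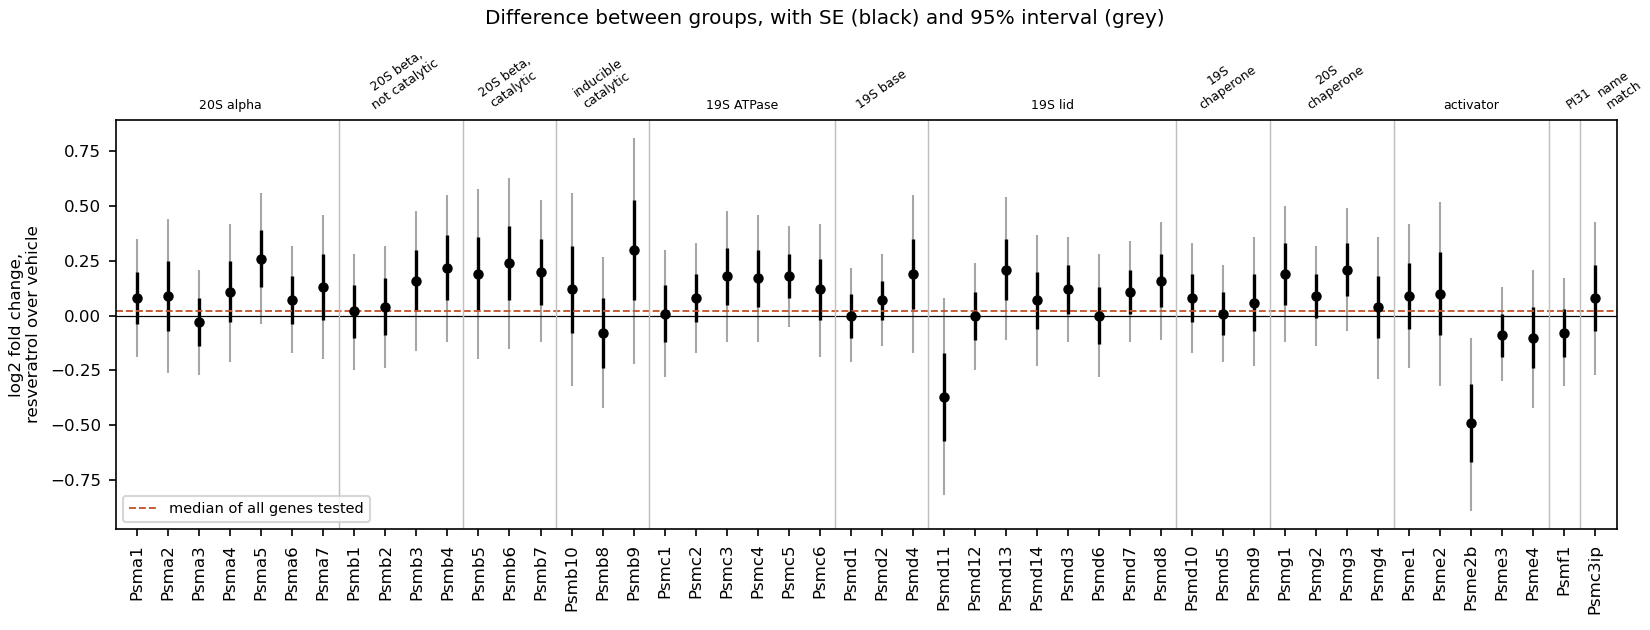
Log2 fold change of resveratrol over vehicle for each row on the log2(FPKM + 0.5) scale, with its SE (black bar) and 95% interval (grey bar), n = 3 libraries per group. The dashed line is the median of all genes tested (0.02), and the points run from -0.49 (Psme2b) to 0.30 (Psmb9).

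For most rows the vehicle mice varied more among themselves than the resveratrol mice did. Vehicle 2 was the lowest of the 6 libraries for 33 of 48 rows (68.8%, against 24.0% of all genes) and vehicle 3 the highest for 27 (56.2%, against 15.5%). Both held at once for 21 rows (43.8%, against 8.20%). The range among vehicle libraries exceeded that among resveratrol libraries in 41 of 48 rows (61% of all genes), with median ranges of 0.44 and 0.16 on the log2 scale. For all genes these medians were 0.32 and 0.25. In the core, vehicle 2 was lowest for 14 of 14 constitutive subunits and vehicle 3 highest for 10, and their median deviation from the 6-library mean was -0.32 in vehicle 2 and 0.19 in vehicle 3. Among the 7 assembly chaperones vehicle 3 was the highest library for 0.

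**Figure D3:**
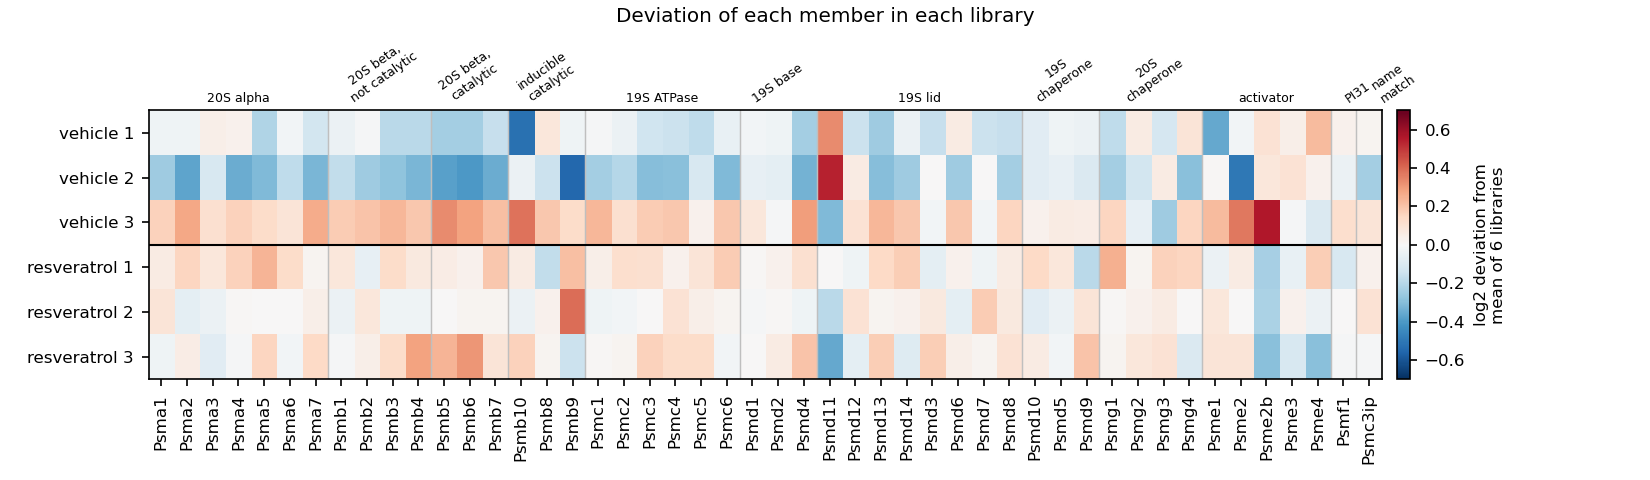
Log2 deviation of each row from its own mean over 6 libraries (colour), with libraries as lines and genes ordered by role. Vehicle 2 is mostly blue (lowest for 33 of 48 rows) and vehicle 3 mostly red (highest for 27), while Psmd11 shows the opposite colours.

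The alpha subunits form the outer rings and the gate of the core. Psma2, the most abundant of them, stood at 95.8, 75.8 and 118.2 FPKM with vehicle and at 108.9, 93.7 and 101.6 FPKM with resveratrol, always given in the order of mice 1, 2 and 3. The resveratrol values lay inside the vehicle range, and the log2 fold change was 0.09 ± 0.16 (SE, n = 3 each). Psma5 had the smallest p of the alpha genes, at 41.1, 38.3 and 52.3 FPKM with vehicle and 56.2, 47.6 and 53.1 FPKM with resveratrol. Vehicle 1 and 2 lay below all resveratrol libraries, and vehicle 3 lay among them. Its log2 fold change was 0.26 ± 0.13 (limma unadjusted p = 0.0818, adjusted p = 0.987), and other genes hold 54.5% of its 50-base words, so its row may hold reads of copies. The difference was 0.17 without vehicle 2, 0.39 without vehicle 3 and -0.00 without vehicle 1 and vehicle 2. Of 7 alpha genes 6 were higher and 1 (Psma3, -0.03) lower, with a median of 0.09.

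Of the beta subunits without a catalytic site, Psmb1 stood at 112.9, 103.7 and 132.3 FPKM with vehicle and at 122.7, 113.6 and 115.4 FPKM with resveratrol. Its log2 fold change was 0.02 ± 0.12 (SE, n = 3 each), and the resveratrol values again fell inside the vehicle range. Psmb4 stood at 89.1, 81.1 and 115.9 FPKM with vehicle and at 107.1, 99.6 and 123.9 FPKM with resveratrol, a difference of 0.22 ± 0.15. Vehicle 3 stood above 2 of the 3 resveratrol libraries. Psmb2 and Psmb3, the other members of these rings, differed by 0.04 and 0.16.

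The 3 constitutive catalytic subunits had fitted differences above 0, none past the test. Psmb5, which carries the chymotrypsin-like site, stood at 57.5, 52.0 and 85.1 FPKM with vehicle and at 70.0, 67.7 and 80.4 FPKM with resveratrol. Psmb6, with the caspase-like site, stood at 64.8, 57.9 and 93.3 FPKM with vehicle and at 78.3, 77.5 and 94.8 FPKM with resveratrol. Psmb7, with the trypsin-like site, stood at 100.8, 88.7 and 130.7 FPKM with vehicle and at 128.7, 115.0 and 120.7 FPKM with resveratrol. For all 3, vehicle 1 and 2 lay below every resveratrol library and vehicle 3 lay at or near the top. Their log2 fold changes were 0.19 ± 0.17, 0.24 ± 0.17 and 0.20 ± 0.15 (SE, n = 3 each; limma adjusted p = 0.987 for each), and the intervals ran from -0.20 to 0.58, -0.15 to 0.63 and -0.12 to 0.53. Without vehicle 1 and vehicle 2 the differences were -0.23, -0.16 and -0.11. Psmb5 shares 57.1% of its 50-base words with other genes.

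The inducible subunits were far below their constitutive partners. Psmb8, the partner of Psmb5, stood at 1.94, 1.58 and 2.14 FPKM with vehicle and at 1.56, 1.87 and 1.85 FPKM with resveratrol. Psmb9, the partner of Psmb6, stood at 0.693, 0.326 and 0.832 FPKM with vehicle and at 0.900, 1.09 and 0.593 FPKM with resveratrol. The groups overlapped for both, and the log2 fold changes were -0.08 ± 0.16 and 0.30 ± 0.23 (SE, n = 3 each). The Psmb9 value was 0.46 with a pseudocount of 0.1, 0.09 without vehicle 2, 0.18 without resveratrol 2, 0.45 without resveratrol 3 and 0.02 without vehicle 1 and vehicle 2. Psmb10, the partner of Psmb7, was the exception in level, at 12, 17 and 22.9 FPKM with vehicle and 18.2, 17 and 19.6 FPKM with resveratrol (0.12 ± 0.20). Vehicle 1 and vehicle 3 were its extremes, and the resveratrol values lay between them. From library to library, Psmb8 stood at 2.22% to 3.37% of Psmb5, Psmb9 at 0.563% to 1.41% of Psmb6 and Psmb10 at 11.9% to 19.1% of Psmb7. Of the summed FPKM of the 6 catalytic genes, the inducible ones made up 7.52% ± 1.27 (SD, n = 3) with vehicle and 7% ± 0.112 (SD, n = 3) with resveratrol, and Psmb10 gave between 82% and 89.9% of that inducible sum. In GENCODE M21 (GRCm38), Psmb8 lies at chr17:34197721-34201454 and Psmb9 at chr17:34181987-34187764, with exons that overlap the antisense genes Gm20496 and Tap1. Psmb10 lies at chr8:105935735-105938444, and all 3 are protein-coding.

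**Figure D4:**
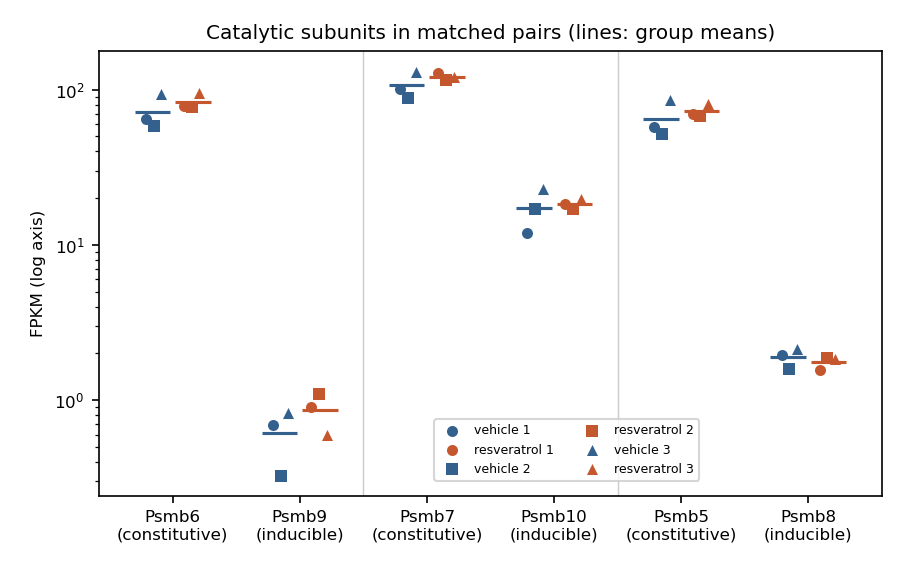
FPKM (log axis) of each constitutive catalytic subunit beside its inducible partner in 3 vehicle (blue) and 3 resveratrol (orange) libraries, with lines at the group means. Psmb9 and Psmb8 lie near 1 and 2 FPKM and Psmb10 between 12 and 22.9, all below the constitutive partners (52.0 to 130.7).

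Promoters of constitutive and inducible genes are shown because these catalytic genes differed so widely in level. They are RefSeq windows (GRCm38.p6) from 250 bases before to 50 after the RefSeq start, on the gene's strand: chr14:54617946-54618245 (minus) for Psmb5, chr11:70525107-70525406 (plus) for Psmb6, chr17:34197945-34198244 (plus) for Psmb8 and chr17:34187281-34187580 (minus) for Psmb9. Capitals mark matches to the core of the antioxidant response element (TGACNNNGC, bound by NRF1 and NRF2), to the CCAAT box (CCAAT, bound by NF-Y) or to the core of the interferon-stimulated response element (GAAA, any 2 bases, GAAA), searched on both strands. The RefSeq starts used for Psmb8 and Psmb9 lie inside the GENCODE spans given above, so these windows lie downstream of the outermost annotated starts and do not cover the bases before those.
Psmb5: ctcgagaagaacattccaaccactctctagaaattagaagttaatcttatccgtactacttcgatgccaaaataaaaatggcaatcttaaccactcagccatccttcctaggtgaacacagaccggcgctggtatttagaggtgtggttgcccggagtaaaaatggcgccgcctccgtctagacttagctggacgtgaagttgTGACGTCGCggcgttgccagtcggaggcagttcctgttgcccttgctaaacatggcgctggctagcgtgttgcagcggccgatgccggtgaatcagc
Psmb6: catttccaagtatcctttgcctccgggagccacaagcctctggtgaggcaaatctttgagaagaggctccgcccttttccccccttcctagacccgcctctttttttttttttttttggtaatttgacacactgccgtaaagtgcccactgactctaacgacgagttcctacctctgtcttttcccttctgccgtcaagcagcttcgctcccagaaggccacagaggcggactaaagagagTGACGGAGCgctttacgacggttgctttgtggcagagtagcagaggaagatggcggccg
Psmb8: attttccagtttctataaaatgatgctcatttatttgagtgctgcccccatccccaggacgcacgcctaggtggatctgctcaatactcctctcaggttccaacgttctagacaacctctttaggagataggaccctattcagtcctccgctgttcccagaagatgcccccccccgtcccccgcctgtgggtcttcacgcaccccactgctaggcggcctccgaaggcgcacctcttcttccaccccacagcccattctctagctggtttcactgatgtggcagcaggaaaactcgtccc
Psmb9: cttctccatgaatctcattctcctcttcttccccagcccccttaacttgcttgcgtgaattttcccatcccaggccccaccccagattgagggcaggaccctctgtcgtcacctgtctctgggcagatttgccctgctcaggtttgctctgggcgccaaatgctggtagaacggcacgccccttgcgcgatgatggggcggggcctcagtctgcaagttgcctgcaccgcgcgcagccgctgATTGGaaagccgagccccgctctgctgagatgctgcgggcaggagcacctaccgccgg
Psmb5 and Psmb6 each hold 1 match to the antioxidant core, at positions -47 and -9 from the start, Psmb9 holds 1 CCAAT box on the reverse strand, and no marked motif overlaps another. Over the 41 members with a promoter entry, 6 (14.6%) hold the antioxidant core, against 14% of 27025 genes. The CCAAT box is in 34.1% of them against 41.1% of genes, and the GC box (GGGCGG) in 56.1% against 38.2%. The interferon core is in 5 members (12.2%), against 3.99% of genes: Psmb3, Psmd4, Psmd9, Psme1 and Psmg4. The inducible genes Psmb8, Psmb9 and Psmb10 hold no match to it in these windows. Psmb1, Psmb2, Psmb7, Psmc3, Psmd3, Psmd7 and Psmg2 have no entry.

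Interferon and antigen-presentation genes, which share their inducers with the inducible subunits, did not pass the test either. Of 19 listed, 16 were measured, 11 were higher and 5 lower, and the median log2 fold change was 0.06, with 0 past the threshold. B2m, the light chain of class I molecules, stood at 114, 90.1 and 122 FPKM with vehicle and at 127, 128 and 104 FPKM with resveratrol. Isg15, a ubiquitin-like modifier induced by interferon, differed by 0.29 ± 0.20 (SE), H2-D1, a class I heavy chain, by 0.18 ± 0.15 and Ifit1, an interferon-induced antiviral protein, by -0.30 ± 0.25. Microglia express the inducible subunits more than neurons do, and the 12 microglia markers summed to 245.5 to 276.3 FPKM in vehicle and 262.3 to 296.2 FPKM in resveratrol. Of these 6 were higher and 6 lower, with a median of 0.03. In tissue RNA, fewer cells of a type and less RNA per cell cannot be told apart.

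The 6 ATPases of the cap form the ring that unfolds substrates, and all 6 had fitted differences above 0 (median 0.14), of which Psmc1 turned below 0 with median centring, quantile normalization or the length and GC correction. Psmc1, the most abundant, stood at 100.4, 85.6 and 118.1 FPKM with vehicle and at 103.9, 98.7 and 101.3 FPKM with resveratrol. Both group means were 101 FPKM, and the log2 fold change was 0.01 ± 0.13 (SE, n = 3 each). Psmc5 stood at 67.7, 71.0 and 78.4 FPKM with vehicle and at 82, 79.1 and 84.3 FPKM with resveratrol, so the groups stood apart, by a gap smaller than the spread within either group. Its difference was 0.18 ± 0.10 (limma unadjusted p = 0.113, adjusted p = 0.987). The remaining ATPases, Psmc2, Psmc3, Psmc4 and Psmc6, differed by 0.08 to 0.18.

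The rest of the cap base holds scaffold proteins and a ubiquitin receptor. Psmd2, a scaffold that binds ubiquitin-like domains of shuttle proteins, stood at 72.0, 70.0 and 73.1 FPKM with vehicle and at 74.9, 74.0 and 76.8 FPKM with resveratrol. The groups did not overlap, but the highest library was only 1.10-fold above the lowest and the log2 fold change was 0.07 ± 0.09 (SE, n = 3 each; limma unadjusted p = 0.476). Psmd1, the other large scaffold, was as steady, with 1.11-fold between its extremes and a difference of 0.00 ± 0.10. Psmd4, the ubiquitin receptor, varied more, at 54.5, 51.1 and 78.8 FPKM with vehicle and 69.4, 63.2 and 74.4 FPKM with resveratrol (0.19 ± 0.16), and vehicle 3 was its highest library.

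The lid removes ubiquitin chains before degradation, and 6 of its 8 genes were higher and 2 lower (median 0.09). Psmd8, the most abundant, stood at 62.0, 58.7 and 76.9 FPKM with vehicle and at 72.4, 72.8 and 74.4 FPKM with resveratrol (0.16 ± 0.12 SE, n = 3 each). Psmd11, a lid scaffold that raises proteasome assembly in human embryonic stem cells, ran against the others. It stood at 33.5, 38.9 and 21.3 FPKM with vehicle and at 26.5, 23.2 and 20.6 FPKM with resveratrol. Vehicle 1 and 2 were high and vehicle 3 lay with the resveratrol libraries, so the groups overlapped. Its log2 fold change was -0.37 ± 0.20 (95% interval -0.82 to 0.08, limma unadjusted p = 0.0944, adjusted p = 0.987). In the authors' deposited table its log2 fold change was -0.41 with p = 0.00625 and q = 0.313, and it was the 1 member with p under 0.05 there, where 5.98% of all rows were. At q under 0.05 the authors' values held 0 members and 101 of all rows (0.744%). Psmd11 lies at chr11:80428615-80473248 in GENCODE M21, has 15 annotated transcripts and shares 14% of its 50-base words with Gm14048. Its value moved with the vehicle libraries: the difference was -0.19 without vehicle 2 and -0.62 without vehicle 3 (limma adjusted p = 0.0882), and it turned to 0.13 without both vehicle 1 and vehicle 2. With a weight per library, 0.266 for vehicle 3 against 4.02 for vehicle 1, it was -0.51 with a limma adjusted p of 0.0227, where the same fit called 1390 genes.

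Among other lid genes, Psmd14, the deubiquitinase of the lid, differed by 0.07 ± 0.13 and Psmd13 by 0.21 ± 0.14 (SE). Psmd12, Psmd3, Psmd6 and Psmd7 differed by -0.00 to 0.12.

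Assembly chaperones hold subunits in place while the complex is built and then leave it. All 7 had fitted differences above 0, between 0.01 and 0.21, of which Psmd5 turned to -0.01 with median centring or quantile normalization and Psmg4 was below 0 with the length and GC correction. With a weight per library neither was above 0. Psmg2, the most abundant chaperone of the core, stood at 14.1, 12.3 and 12.9 FPKM with vehicle and at 13.8, 13.9 and 14.3 FPKM with resveratrol (0.09 ± 0.10 SE, n = 3 each). Psmg3 stood at 6.33, 7.24 and 5.73 FPKM with vehicle and at 7.78, 7.25 and 7.44 FPKM with resveratrol. Its groups stood apart, with vehicle 2 just under resveratrol 2, and the difference was 0.21 ± 0.12 (limma unadjusted p = 0.120, adjusted p = 0.987). In GENCODE M21, 9.68% of the Psmg3 exon bases overlap Gm26938 on the same strand. Of the cap chaperones, Psmd5 stood at 26.7, 26.1 and 28.4 FPKM with vehicle and at 28.8, 26.3 and 26.8 FPKM with resveratrol (0.01 ± 0.10). Psmd10, also known as gankyrin, stood at 8.98, 8.98 and 9.73 FPKM with vehicle and at 10.5, 8.97 and 9.90 FPKM with resveratrol (0.08 ± 0.11), and the groups overlapped for both.

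The activators went in both directions, with 2 of 5 higher and 3 lower (0 of 5 higher with the length and GC correction). Psme3, the nuclear PA28 gamma, was the most abundant, at 33.7, 35 and 32.5 FPKM with vehicle and 31.6, 33.3 and 30.3 FPKM with resveratrol (-0.09 ± 0.10 SE, n = 3 each). Psme4, which encodes PA200, differed by -0.10 ± 0.14, and the PA28 alpha and beta genes Psme1 and Psme2 by 0.09 ± 0.15 and 0.10 ± 0.19. Psme2b had the largest difference of the 48 rows. It stood at 1.48, 1.45 and 2.24 FPKM with vehicle and at 1.08, 1.09 and 1.01 FPKM with resveratrol, so every resveratrol library lay below every vehicle library. The log2 fold change was -0.49 ± 0.18 (95% interval -0.89 to -0.10), with an unadjusted p of 0.0191 and an adjusted p of 0.987 in limma. Without vehicle 1 and vehicle 2 it was -0.81, and without vehicle 3 it was -0.33. The log2 fold change that the authors deposited for Psme2b was -0.70, with their p = 0.166.

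Psme2b is uncertain because it is a near copy of Psme2: 68.7% of its 50-base words occur in Psme2, and 59.3% of those of Psme2 occur in Psme2b. Psme2b lies at chr11:48945354-48946190 and Psme2 at chr14:55587441-55591113 (GENCODE M21). Psme2b held 7.11%, 9.60% and 8.10% of the FPKM of both rows with vehicle (mice 1, 2, 3), against 4.99%, 5.28% and 4.62% with resveratrol. The sum of both rows was 21.2 ± 6.26 FPKM (SD, n = 3) with vehicle and 21.4 ± 0.618 FPKM (SD, n = 3) with resveratrol.

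Psmf1, which encodes the proteasome-binding regulator PI31, stood at 8.56, 8.11 and 9.09 FPKM with vehicle and at 7.70, 8.36 and 8.28 FPKM with resveratrol (-0.08 ± 0.11 SE, n = 3 each). Psmc3ip, the row taken by name alone, stood at 1.54, 1.21 and 1.65 FPKM with vehicle and at 1.56, 1.66 and 1.5 FPKM with resveratrol (0.08 ± 0.15). The groups overlapped for both.

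Most proteasome transcripts are short, and the deviations of several libraries went with transcript length or GC content. The median length was 1435 bases, against 3205 over 13035 genes with annotation. Across the 48 members, Spearman's correlation of transcript length with the deviation was 0.22 for the library of vehicle 1, 0.38 for vehicle 2, -0.43 for vehicle 3 and -0.23 for resveratrol 3 (a description across genes that share libraries). Over all genes these were 0.32, 0.50, -0.53 and -0.33 (n = 13035). The correlation of length with the log2 fold change was -0.42 across members and -0.33 across all genes. With GC content it was 0.49 across members and 0.24 across all genes. The members' deviations had correlations with GC content of -0.45, -0.13 and 0.27 for vehicle 1, 2 and 3. For resveratrol 1, 2 and 3 they were -0.21, 0.32 and 0.58. The same values over all genes were -0.36, 0.04 and -0.01 for vehicle and -0.46, 0.24 and 0.59 for resveratrol. Of 25 members under 1500 bases 24 were higher (median 0.12), and of 10 members of 2500 bases or more 5 were higher (median -0.01). Among all genes under 1500 bases 71.1% were higher (median 0.10) and vehicle 2 was lowest for 47.5%, while 19 of the 25 short members had vehicle 2 lowest. When each library was corrected for transcript length and GC content, 30 of 48 members were higher, with a median of 0.01.

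**Figure D5:**
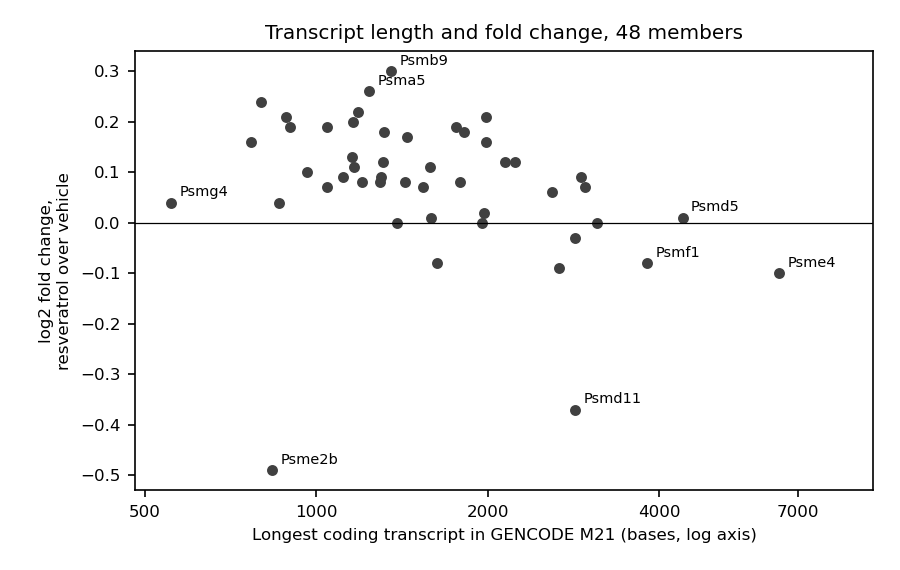
Log2 fold change of resveratrol over vehicle (y axis) against the longest coding transcript in bases (log x axis), with 1 point per row. Most points under 1500 bases lie above 0 (24 of 25), those of 2500 bases or more are split 5 to 5, and Psme2b and Psmd11 stand apart below.

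Genes that work with the proteasome were compared next. Of 30 partner symbols (such as shuttle factors, deubiquitinases and assembly factors), 26 were measured, 16 were higher and 10 lower, and the median log2 fold change was 0.02, with 0 past the threshold. Pomp, the chaperone that closes the core, stood at 101, 86.6 and 143 FPKM with vehicle and at 140, 121 and 128 FPKM with resveratrol. Vehicle 2 was its lowest and vehicle 3 its highest library, as for most core subunits, and it differed by 0.26 ± 0.17 (SE, n = 3 each). Akirin2, which carries proteasomes into the nucleus, was lower in every resveratrol library (-0.15 ± 0.10). Rad23b (0.11 ± 0.09) and Vcp (0.09 ± 0.09) were higher in every resveratrol library. Of all genes, 6.28% had groups that did not overlap in either direction, and 4.28% were higher in every resveratrol library. Ubqln2, a shuttle factor, stood at 38.4, 51.9 and 25.0 FPKM with vehicle and at 27.5, 28 and 24.7 FPKM with resveratrol (-0.46 ± 0.22). Ubqln1 and Ubqln4 differed by -0.04 and 0.09.

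Transcription factors that act on proteasome genes, and their regulators, were measured for 13 of 14 symbols. Of these 9 were higher and 4 lower, with a median of 0.06 and 0 past the threshold. Mafg, a small MAF partner of NRF1 and NRF2, differed by 0.30 ± 0.14, Foxo4 by 0.28 ± 0.16, and the NF-Y subunits Nfyc and Nfyb by 0.19 ± 0.11 and 0.23 ± 0.15 (SE, n = 3 each; limma adjusted p = 0.987 for each). These 4 had the smallest unadjusted p of the list, while Nfya of NF-Y and Foxo3 differed by 0.01 and -0.02. Nfe2l1, which encodes NRF1, the factor that raises proteasome genes when proteolysis fails, was named after its values were seen. It stood at 73.7, 75.0 and 76.5 FPKM with vehicle and at 79.1, 79.0 and 80.6 FPKM with resveratrol, a difference of 0.08 ± 0.09. Its groups did not overlap, and the gap between them was under 1.1-fold. In this list Nfe2l1 and Nfyc were higher in every resveratrol library, as were 4.28% of all genes, and 0 genes were lower in every one.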

How the data were processed

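Per the labels' protocols, RNA of the right cortex of 6 mice was made into stranded libraries after ribosomal RNA removal; groups and numbers come from sample titles. Per the file headers, the authors deposited FPKM for each gene and library. They also deposited log2 group values with a log2 fold change, and, per the file headers, a p-value beside each q-value. STAR, Cufflinks, Cuffdiff and GRCm38 stand in the submitters' processing notes without version or role. Annotation, gene filter and use of strand are not given here by any source, so for the 12 members with antisense exon overlap reads of both genes cannot be told apart. P-values measure the spread between the 3 mice of each group.

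Of 13582 rows, 2 with a failed value and those whose mean fell short of 0.5 FPKM were left out, and 13574 were tested, two-sided, in limma 3.58.1 under R 4.3.3, using log2(FPKM + 0.5), trended empirical Bayes and Benjamini-Hochberg adjustment over all of them at 0.05. This scale understates fold changes of low genes. The test was checked on simulated data in which genes varied independently and shifts were larger than any member's fitted difference. That check does not cover library patterns shared among genes or small differences. At the best trial step, 28.8% to 31.1% of low values lay within 0.1 of a whole read number, so depth is unknown and counting error is not given. Deposited loci matched GRCm38 genes of their name in 15.2% of rows and were not used: coordinates, lengths and 50-base words are from GENCODE M21, promoters from RefSeq. Members, roles and lists were chosen with earlier results of these data known. Values per library are given for the 6 catalytic subunits, for the gene highest in level and the one with the smallest p in each role, and where groups do not overlap; at most 4 genes with the smallest p are named per list. A result that the rule would name among the partners is not reported here. Alternatives were pseudocounts of 0.1 and 1, filters of none and 2 FPKM, quantile normalization, median centring, robust empirical Bayes, a weight per library, a replicate block, a length and GC correction, and left-out libraries.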

Additional observations from a re-analysis of the deposited data

How the results depend on the processing

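With single libraries left out, 0 members passed the test and 1 to 7 genes did, and the median log2 fold change of members ran over 0.01 to 0.15. A further fit left out vehicle 1 and vehicle 2 together and kept vehicle 3 alone. Over all these fits the median log2 fold change ran over -0.10 to 0.15 for members and 0.01 to 0.03 for all genes. By role it ran over -0.14 to 0.27 for the constitutive core, -0.09 to 0.16 for the cap, -0.12 to 0.21 for alpha subunits, -0.16 to 0.23 for non-catalytic beta subunits, -0.16 to 0.40 for constitutive catalytic subunits, -0.23 to 0.34 for inducible subunits, -0.10 to 0.24 for ATPases, -0.08 to 0.08 for the other base genes, -0.09 to 0.14 for the lid, -0.02 to 0.10 for cap chaperones, 0.03 to 0.16 for core chaperones and -0.17 to 0.02 for activators. By list it ran over -0.01 to 0.05 for partners, -0.03 to 0.12 for interferon genes, -0.39 to -0.09 for ependymal, -0.69 to 0.33 for striatal, -0.15 to 0.03 for astrocyte and -0.19 to -0.09 for oligodendrocyte markers. Named members whose sign turned ran over -0.22 to 0.25 (Psma2), -0.17 to 0.11 (Psmb1), -0.32 to 0.34 (Psmb10), -0.08 to 0.37 (Psmb4), -0.23 to 0.40 (Psmb5), -0.16 to 0.44 (Psmb6), -0.11 to 0.36 (Psmb7), -0.22 to 0.13 (Psmc1), -0.05 to 0.15 (Psmc3ip), -0.62 to 0.13 (Psmd11), -0.19 to 0.38 (Psmd4), -0.06 to 0.05 (Psmd5) and -0.07 to 0.28 (Psmd8); the cause was not tested. For Psmb4, Psmb5, Psmb6 and Psmb7 the sign turned only in the fit with vehicle 3 alone. Weighting libraries called 1390 of 13574 genes and 3 of 48 members (Psmd11, Psmd13 and Psme1). It gave medians of 0.35 for inducible subunits, -0.02 for interferon genes and -0.21 for endothelial markers. The length and GC correction called 0 genes (510 at an unadjusted p under 0.05 in limma) and gave medians of -0.01 for inducible subunits, 0.04 for core chaperones and -0.41 for ependymal markers. It turned Psmb1 to -0.03, Psmb10 to -0.01 and Psmc1 to -0.06. Quantile normalization gave oligodendrocyte markers -0.21 and turned Psmb1 to -0.04, Psmc1 to -0.03 and Psmd5 to -0.01, and median centring turned Psmc1 and Psmd5 to -0.01. These 3 settings moved the median of all genes to 0.00, and a filter of 2 FPKM moved that of activators to 0.00. Libraries of the same replicate number correlated at 0.04, 0.15 and 0.18 in their deviations, and those of different numbers at -0.30 to 0.26. So few libraries cannot show whether the numbers pair the mice. With the number as a replicate block 1 gene and 0 members were called, as without it. With the block 645 genes had an unadjusted p under 0.05 in limma, against 329 without it.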
